A study of Homo sapiens with 39 samples.

Results

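C4-2B prostate cancer cells treated for 5 days with talazoparib at 10 nM were compared directly with C4-2B cells treated for the same time with olaparib at 1 µM, to find how far the transcriptional responses to these PARP inhibitors differed at all. The libraries were chosen by their treatment labels alone, and they are 6 of the 39 RNA-sequencing libraries of the series, 3 for each drug (A, B and C). The other panel groups were DMSO vehicle, abiraterone acetate at 5 µM, enzalutamide at 20 µM, abiraterone with olaparib, and enzalutamide with talazoparib, all in 3 libraries at 5 days, and a separate time course held DMSO and olaparib at 1 and 5 µM at 1 and 5 days. C4-2B is an established castration-resistant line derived from LNCaP, and every group is this same line. Each drug of the direct comparison was given at a single dose, so the drug and its dose cannot be told apart, and the doses differ. Nothing in the labels says that A, B and C were separate cultures, so every p-value measures the spread between these libraries, which may be technical.

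PARP1 and PARP2 bind DNA breaks and attach chains of ADP-ribose to themselves and to nearby proteins, which opens the way for repair. Olaparib and talazoparib both occupy the NAD+ pocket of these enzymes and hold them on DNA, and talazoparib is known as the stronger trapping agent. Cells that meet trapped PARP during replication stall forks, signal through ATR and ATM, and in cells with working p53 raise its targets, among them CDKN1A, the gene for the cyclin-dependent kinase inhibitor p21.

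The libraries held 36348316 to 39550494 estimated counts with olaparib and 35985799 to 49833473 with talazoparib, and talazoparib C was the deepest. All 16 prostate lineage markers were above 3 counts in each of the 6 libraries, with summed levels of 6857 to 7056 CPM (TMM-scaled counts relative to library size) with olaparib and 6781 to 6998 CPM with talazoparib. Of 21 markers of other cell types, 11 were at 3 counts or fewer in all 6 libraries and 7 were above 3 counts in each. Among the latter COL1A1 had 502 to 621 counts, VWF 431 to 631 and CD68 454 to 642. The summed level of the 21 markers was 48.2 to 49.5 CPM with olaparib and 45.1 to 47.2 CPM with talazoparib, again without TMM scaling. Mitochondrially encoded genes took 12.3% to 12.4% of counts with olaparib and 12.1% to 13.03% with talazoparib. On variance-stabilised values, the distance between an olaparib and a talazoparib library was 23.8 in mean (22.5 to 25.1 over 9 pairs), against 21.6 between olaparib libraries and 21.9 between talazoparib libraries.

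The drugs differed in many genes by little. Of 18625 genes tested with edgeR's quasi-likelihood test, 1557 (8.36%) passed an adjusted p of 0.05, with 580 (3.11%) higher and 977 (5.25%) lower with talazoparib, and 3950 had an unadjusted p under 0.05. The count was 630 without talazoparib C, 784 without olaparib C, 804 without talazoparib B, 1021 without olaparib A, and 830 with offsets for GC content and transcript length. Of these 1557 genes, 1349 (86.6%) differed by less than 1.2-fold, and the median size of the difference was 0.16 on the log2 scale. A further requirement that the log2 fold change be 0.5 or more in size left 55 genes (0.295%), 35 higher and 20 lower, and 19 of them averaged 100 counts or more in whichever drug group was higher. The olaparib and talazoparib libraries did not overlap in CPM for 4729 genes (25.4%), among them 1518 of the 1557.

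The precision behind these small differences also bounds the larger ones. Of 12466 genes with at least 100 counts, the 95% interval of the difference lay within 1.2-fold in either direction for 8833 (70.9%), within 1.5-fold for 12104 (97.1%) and within 2-fold for 12367 (99.2%). The 1 gene past the threshold with at least 100 counts and a log2 fold change of 1 or more in size had no symbol: ENSG00000284906.3 had a mean of 54.7 counts with olaparib and 318 with talazoparib, a log2 fold change of 2.38 ± 0.56 (SE). Its adjusted p was 0.0165 by edgeR, and it was picked out after its values were seen.

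**Figure D1:**
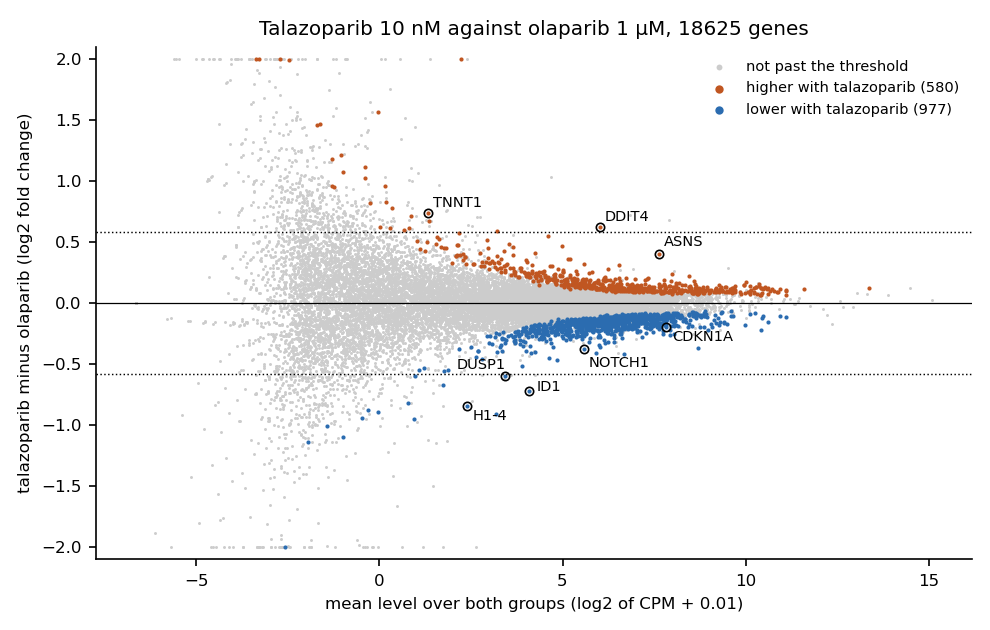
Each point is 1 of the 18625 genes tested, with the mean level over both groups on the x axis (log2 of CPM + 0.01) and the log2 fold change of talazoparib minus olaparib on the y axis; coloured points passed the adjusted p of 0.05, dotted lines mark 1.5-fold, and 97 genes beyond 2 in either direction, 5 of them past the threshold, are drawn at the edge. The coloured points hug the zero line at high levels, and DDIT4, H1-4, ID1, DUSP1 and TNNT1 lie outside the dotted lines.

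Far more genes passed for the mean of both drugs against DMSO than between the drugs. The former sets 6 libraries against 3 and the latter 3 against 3, so the counts differ in precision. A gene moved by 1 drug alone can pass the former. The mean of the olaparib and talazoparib groups differed from DMSO for 7090 genes (38.1%), with 3856 (20.7%) higher and 3234 (17.4%) lower, and the median size of this effect was 0.25 on the log2 scale. Scaling by total counts moved that split to 2977 higher and 4301 lower. The median of talazoparib minus olaparib was -0.031 over the 3856 raised genes and 0.016 over the 3234 lowered genes, against 0.0015 over all genes tested. With GC and length offsets these medians were -0.010 and -0.00030, so the second changed sign. Among the raised genes 87 were higher and 416 lower with talazoparib (13.04% called), and among the lowered genes 226 were higher and 172 lower (12.3% called), against 8.36% of all genes. The 396 genes raised at least 2-fold by the drugs on average had medians of 1.43 with olaparib and 1.44 with talazoparib relative to DMSO (log2), and 2 of them were higher and 10 lower with talazoparib (3.03% called).

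CDKN1A shows this pattern in a single gene. Its level in libraries A to C was 58.2, 57.3 and 46.8 CPM with DMSO, 239, 238 and 256 CPM with olaparib and 217, 211 and 212 CPM with talazoparib. All 6 drug libraries were above all DMSO libraries, and the talazoparib libraries were below the olaparib libraries with no overlap. The difference between the drugs was -0.19 ± 0.048 SE, adjusted p = 0.0162, and the call was lost without olaparib C, talazoparib B or talazoparib C. It was also lost in the fit of only the 9 DMSO, olaparib and talazoparib libraries. Relative to DMSO the log2 fold change was 2.18 with olaparib and 1.98 with talazoparib, from comparisons that share the DMSO libraries. CEL, which encodes a bile salt-activated lipase and has a pseudogene that can share its reads, had the largest rise of both drugs on average among genes with a symbol and 100 counts. It was at 0.849, 0.902 and 0.684 CPM with DMSO, 8.29, 8.47 and 7.56 CPM with olaparib and 6.603, 6.82 and 7.61 CPM with talazoparib, so the drug groups overlapped. Talazoparib minus olaparib was -0.21 (95% interval -0.40 to -0.015, adjusted p = 0.191) for CEL. CHAC1, a glutathione-degrading enzyme and ATF4 target, was at 12.2, 12.4 and 10.8 CPM with DMSO, 3.79, 3.84 and 3.24 CPM with olaparib and 3.19, 4.04 and 3.86 CPM with talazoparib. The difference between the drugs was 0.033 (95% interval -0.23 to 0.30, adjusted p = 0.927) for CHAC1, an interval that reaches past 1.2-fold upward.

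**Figure D2:**
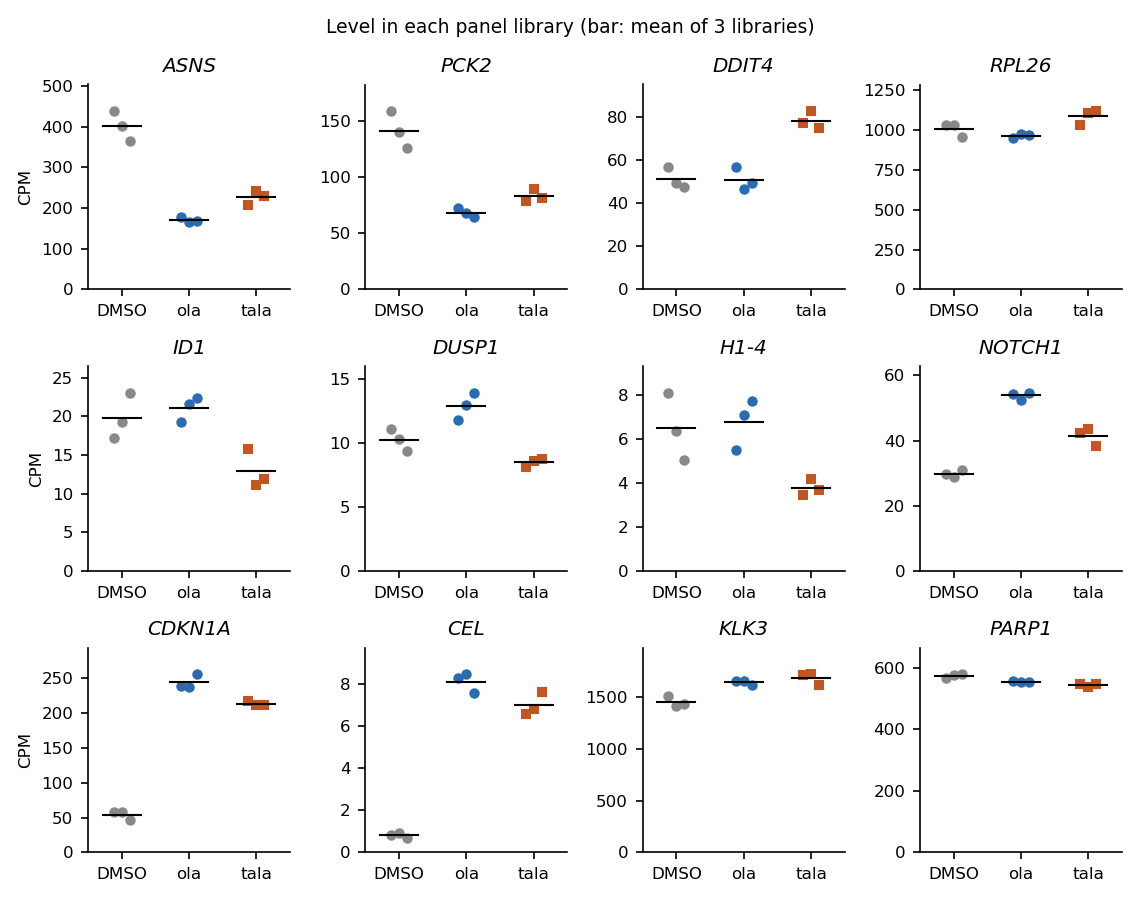
Level in CPM (y axis, from 0) of 12 genes in each of the 3 DMSO, 3 olaparib (ola) and 3 talazoparib (tala) libraries, with a bar at the mean of each group. DDIT4 stands at 74.9 to 82.6 CPM with talazoparib against 46.5 to 56.8 with olaparib, CDKN1A is high with both drugs, and PARP1 is nearly level.

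The drugs' own targets were at like levels. PARP1 stood at 556, 556 and 554 CPM with olaparib and 547, 539 and 547 CPM with talazoparib, and the difference was -0.029 (95% interval -0.072 to 0.014, adjusted p = 0.465). PARP2 stood at 28.7, 31.0 and 29.7 CPM with olaparib and 28.2, 27.7 and 31.0 CPM with talazoparib, with overlapping groups and a difference of -0.037 (95% interval -0.14 to 0.062, adjusted p = 0.733). Both intervals lie within 1.2-fold. Of 19 genes of the PARP family and its partners tested, 2 were higher with talazoparib and none was lower (10.5% called, against 8.36% of all genes), with a median of -0.0055 over the list. TIPARP (PARP7), a mono-ADP-ribosyltransferase that the aryl hydrocarbon receptor induces, was at 17.3, 15.6 and 16.7 CPM with olaparib and 19.0, 19.3 and 20.6 CPM with talazoparib (log2 fold change 0.25 ± 0.065 SE, adjusted p = 0.0127). OARD1, which removes ADP-ribose from glutamate side chains, was at 23.1, 22.6 and 23.1 CPM and 25.3, 26.4 and 26.8 CPM in the same order (log2 fold change 0.19 ± 0.050 SE, adjusted p = 0.0129). The groups did not overlap for either gene, and both calls were lost without olaparib B or talazoparib C.

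Few repair genes passed the test between the drugs. Of 46 genes of homologous recombination and the Fanconi anemia pathway, none was higher and 1 was lower with talazoparib (2.17% called, against 8.36% of all genes), with a median of -0.0094. The lower gene was SLX4, the scaffold of structure-specific nucleases, at 19.7, 20.6 and 20.3 CPM with olaparib and 18.1, 17.4 and 17.9 CPM with talazoparib (log2 fold change -0.18 ± 0.058 SE, adjusted p = 0.0454). Its call was lost with each of the 6 libraries left out in turn. BRCA1 was at 58.9, 64.9 and 62.5 CPM with olaparib and 60.5, 53.2 and 56.9 CPM with talazoparib, a difference of -0.13 (95% interval -0.23 to -0.020, adjusted p = 0.143). BRCA2 was at 55.6, 57.5 and 54.9 CPM and 54.6, 41.3 and 48.6 CPM, lower in all 3 talazoparib libraries, but its difference of -0.22 (95% interval -0.46 to 0.014, adjusted p = 0.269) did not pass. For BRCA2 the interval reaches beyond 1.2-fold, so a difference of that size was not resolved. Of 50 genes of excision, mismatch and end-joining repair, APEX1, the main abasic-site nuclease, was higher (log2 fold change 0.089 ± 0.026 SE, adjusted p = 0.0239) and OGG1, the 8-oxoguanine glycosylase, was lower (log2 fold change -0.18 ± 0.055 SE, adjusted p = 0.0377), and the median was 0.011 with 4% called. Both calls were lost with no filter, with GC and length offsets, and without any 1 of olaparib A, B or C or talazoparib B or C.

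Cell cycle lists had few calls, all of them lower with talazoparib in this fit. Of 53 genes of DNA replication and S phase 4 were lower and none higher (median -0.046), of 66 mitotic genes 5 were lower and none higher (median -0.0033), of 22 checkpoint genes 2 were lower (median -0.059), and of 15 cyclins and inhibitors 5 were lower (median -0.068). E2F2, an S-phase transcription factor, stood at 12.2, 11.4 and 12.4 CPM with olaparib and 10.0, 9.20 and 9.43 CPM with talazoparib (log2 fold change -0.33 ± 0.092 SE, adjusted p = 0.0204). The mitotic kinase PLK1 stood at 64.8, 66.4 and 69.1 CPM with olaparib and 59.2, 57.5 and 59.4 CPM with talazoparib (log2 fold change -0.19 ± 0.051 SE, adjusted p = 0.024). MDC1, which anchors repair factors at phosphorylated H2AX, stood at 137, 140.5 and 149.7 CPM and 131, 122 and 123 CPM (log2 fold change -0.19 ± 0.035 SE, adjusted p = 0.000736). None of these groups overlapped. CDCA8, a chromosomal passenger protein, stood at 39.4, 40.2 and 39.9 CPM with olaparib and 35.6, 33.3 and 34.0 CPM with talazoparib (log2 fold change -0.22 ± 0.044 SE, adjusted p = 0.00175), and its call and that of MDC1 held under every alternative run. The share called was 7.55% in S phase, 7.58% in mitosis and 9.09% in the checkpoint list, near the 8.36% of all genes, and 33.3% of the few cyclins and inhibitors. Of that last list, the calls of CDKN2B, CDK6, CDKN1A and CCND3 were lost without olaparib C, talazoparib B or talazoparib C. With GC and length offsets 2 of its genes were lower. Other settings also called mitotic genes higher, 2 with DESeq2 or the CPM minimum and 3 with no filter. The calls of E2F2 and PLK1 were lost without olaparib C, talazoparib B or talazoparib C, among others. The 4 calls in S phase fell to 0 without olaparib C, talazoparib B or talazoparib C and rose to 9 without talazoparib A, and the mitotic calls ranged from 1 to 10. In these bulk samples, fewer cells in a phase and less RNA per cell cannot be told apart.

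More genes of the ATF4 amino acid response were higher than lower with talazoparib. ATF4 is the transcription factor that cells translate when amino acids run short or the endoplasmic reticulum is stressed, and it drives amino acid synthesis, transport and tRNA charging. Of 49 genes tested 20 were higher and 3 lower with talazoparib, where 3.11% of all genes were higher, and the libraries of the drugs did not overlap for 28 of the list's genes upward and 4 downward, beside 2211 and 2518 of all 18625 genes. The list median was 0.11, against 0.0015 over all genes. Relative to DMSO the list median was -0.49 with olaparib and -0.43 with talazoparib (log2), from comparisons that share the DMSO libraries.

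ASNS, asparagine synthetase, had the largest difference among the list's called genes after DDIT4. It was at 438, 402 and 366 CPM with DMSO, 179, 166 and 167 CPM with olaparib and 207, 242 and 229 CPM with talazoparib. Its talazoparib libraries lay between the olaparib and the DMSO libraries with no overlap on either side. The difference was 0.41 ± 0.063 SE, adjusted p = 0.00108, 1.32-fold. PCK2, mitochondrial phosphoenolpyruvate carboxykinase, was at 72.2, 67.9 and 64.6 CPM with olaparib and 78.8, 89.2 and 81.0 CPM with talazoparib, against 158, 139.8 and 126 CPM with DMSO (log2 fold change 0.28 ± 0.067 SE, adjusted p = 0.0157). JDP2, a bZIP repressor that pairs with ATF and JUN proteins, was at 9.24, 7.74 and 8.25 CPM with olaparib and 9.47, 10.1 and 10.9 CPM with talazoparib (log2 fold change 0.28 ± 0.074 SE, adjusted p = 0.0158). All 3 genes were lower than DMSO with either drug, and less so with talazoparib. The calls of PCK2 and JDP2 were lost without olaparib B or olaparib C, among others, and that of ASNS held throughout.

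DDIT4, an inhibitor of mTORC1 that many stresses induce, had the largest rise among the list's called genes. It was at 56.6, 49.5 and 47.5 CPM with DMSO, 56.8, 46.5 and 49.2 CPM with olaparib and 77.2, 82.6 and 74.9 CPM with talazoparib, so olaparib and DMSO overlapped and talazoparib stood above both. The gene, at chr10:72273919-72276036 on the plus strand of GRCh38, differed by 0.62 ± 0.097 SE, adjusted p = 0.00133, 1.54-fold, and its call held under every alternative run. ATF4 itself, picked out after its values were seen, was higher by 0.22 ± 0.028 SE (adjusted p = 6.46e-06, edgeR). The aminoacyl-tRNA synthetases called higher were LARS1, IARS1, EPRS1, NARS1, TARS1, SARS1, GARS1 and CARS1, by 0.079 to 0.21, while VARS1 was lower by 0.10, and serine and one-carbon genes called higher were PHGDH, PSAT1, MTHFD2 and ALDH1L2. The other lower genes were ATF3 (log2 fold change -0.22 ± 0.060 SE, adjusted p = 0.0203) and SESN2, which p53 also induces, and the ATF3 call was lost without olaparib C, talazoparib B or talazoparib C. The direction of the list held under every scaling and without each library, with 14 to 22 genes higher and a median of 0.073 to 0.12 when 1 library was left out.

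The promoters of 3 of these genes are shown because they hold the letters of a composite C/EBP-ATF response element, searched as TGATGNAA on both strands. Each is 250 bases before to 50 bases after the RefSeq start site (GRCh38.p14), 5′ to 3′ on the strand of the gene, with the match in capitals.
ASNS, chr7:97872359-97872658, minus strand: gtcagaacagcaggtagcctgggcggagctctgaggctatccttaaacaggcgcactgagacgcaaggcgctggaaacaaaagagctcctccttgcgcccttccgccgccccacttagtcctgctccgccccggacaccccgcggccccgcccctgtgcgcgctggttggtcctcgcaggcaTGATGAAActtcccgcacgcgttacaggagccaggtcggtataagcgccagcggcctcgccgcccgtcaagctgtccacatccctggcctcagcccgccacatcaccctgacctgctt
CARS1, chr11:3057374-3057673, minus strand: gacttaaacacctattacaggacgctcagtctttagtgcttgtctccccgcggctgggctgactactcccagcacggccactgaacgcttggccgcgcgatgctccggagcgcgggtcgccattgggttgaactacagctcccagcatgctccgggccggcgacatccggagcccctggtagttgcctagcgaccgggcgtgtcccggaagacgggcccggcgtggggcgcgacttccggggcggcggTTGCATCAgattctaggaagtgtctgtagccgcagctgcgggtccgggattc
TARS1, chr5:33440715-33441014, plus strand: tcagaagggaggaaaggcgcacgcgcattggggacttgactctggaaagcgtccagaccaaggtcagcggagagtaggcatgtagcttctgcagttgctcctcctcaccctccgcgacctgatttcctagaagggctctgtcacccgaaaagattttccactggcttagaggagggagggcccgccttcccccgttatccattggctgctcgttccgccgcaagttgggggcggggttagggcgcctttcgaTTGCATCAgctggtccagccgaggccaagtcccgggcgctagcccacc
Read along the printed strand, the match begins 68 bases before the start in ASNS, 2 bases before it in CARS1, where it runs across the start, and 2 bases after it in TARS1. In CARS1 and TARS1 it is on the opposite strand. Of 34943 promoter windows of this length 1266 (3.62%) held a match. Of the ATF4 list's 39 genes with a window 12 (30.8%) held one, among them 5 of 18 (27.8%) called higher with talazoparib and 7 of 21 (33.3%) others, so the letters were not more frequent among the genes that differed between the drugs. A match is a description of letters and says nothing of binding.

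Cytosolic ribosomal protein genes were the list with the highest share of calls. Of 80 genes tested 57 were higher with talazoparib and none was lower (71.2% called, against 8.36% of all genes), 77 had a difference above zero, and the median was 0.11. As a share of all counts these genes made up 5.70%, 5.62% and 5.69% of the olaparib libraries, 5.95%, 6.23% and 6.07% of the talazoparib libraries and 6.18%, 6.10% and 5.95% of the DMSO libraries. The talazoparib libraries were above the olaparib libraries and overlapped with DMSO. RPL26, a protein of the large subunit, was at 948, 973 and 970.3 CPM with olaparib and 1032, 1110.3 and 1119 CPM with talazoparib (log2 fold change 0.17 ± 0.030 SE, adjusted p = 0.000488). RPL27A was at 933, 935 and 953 CPM and 1002, 1048 and 1073 CPM (log2 fold change 0.15 ± 0.022 SE, adjusted p = 8.56e-05). RPL22 and RPS24 were higher as well, and these 4 genes, at 1.11-fold to 1.13-fold, had no overlapping groups. Without talazoparib B the count fell to 29, and without any other library it was 39 to 65. Ribosomal protein genes have many processed pseudogenes, so the split of reads between copies is uncertain.

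The nuclear genes of the respiratory chain had a share of calls near that over all genes. Of 79 nuclear genes of the respiratory chain 8 were higher and none lower with talazoparib (10.1% called, against 8.36% of all genes), 66 had a difference above zero, and the median was 0.058. UQCRB, a subunit of complex III, was at 210.2, 210.1 and 213 CPM with olaparib and 219, 236 and 242 CPM with talazoparib (log2 fold change 0.14 ± 0.031 SE, adjusted p = 0.00359). The count of 8 was 1 without talazoparib C, 4 without talazoparib B or olaparib B, 5 without olaparib A and 15 without talazoparib A. None of 15 mitochondrially encoded genes passed in either direction (median 0.020). With GC and length offsets 3 of them were lower and the median was -0.079, and RLE scaling, total-count scaling and DESeq2 each called 1 lower. MT-CO1 was at 21585, 22629 and 21467 CPM with olaparib and 22236, 24887 and 24301 CPM with talazoparib, a difference of 0.12 (95% interval -0.0059 to 0.25, adjusted p = 0.26). Of 36 genes of MYC and ribosome biogenesis 5 were higher, among them GNL3 (nucleostemin), and 3 lower, among them POLR1A, the largest subunit of RNA polymerase I, and TCOF1 (22.2% called, median 0.028). The UQCRB call was lost without talazoparib C, and that of TCOF1 without any 1 of 5 of the 6 libraries.

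Of 41 genes of glycolysis and the hypoxia response 7 were higher and 1 lower with talazoparib (19.5% called, against 8.36% of all genes, median 0.066). ENO2, the neuronal form of enolase, was at 2.74, 2.60 and 2.15 CPM with olaparib and 3.73, 3.57 and 3.498 CPM with talazoparib, against 2.04, 2.095 and 2.102 CPM with DMSO (log2 fold change 0.52 ± 0.10 SE, adjusted p = 0.00119). ENO1, the general form, was at 1232, 1174 and 1146 CPM with olaparib and 1258, 1326 and 1313 CPM with talazoparib (log2 fold change 0.13 ± 0.028 SE, adjusted p = 0.00294), and MXI1, a MYC antagonist induced by hypoxia, was at 59.0, 58.1 and 59.4 CPM and 63.2, 68.6 and 66.1 CPM (log2 fold change 0.17 ± 0.040 SE, adjusted p = 0.00772). The groups did not overlap for these 3 genes, and the MXI1 call was lost without talazoparib B. GAPDH, TPI1 and LDHB were higher by 0.090 to 0.12, and HK1 was lower by 0.12.

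**Figure D3:**
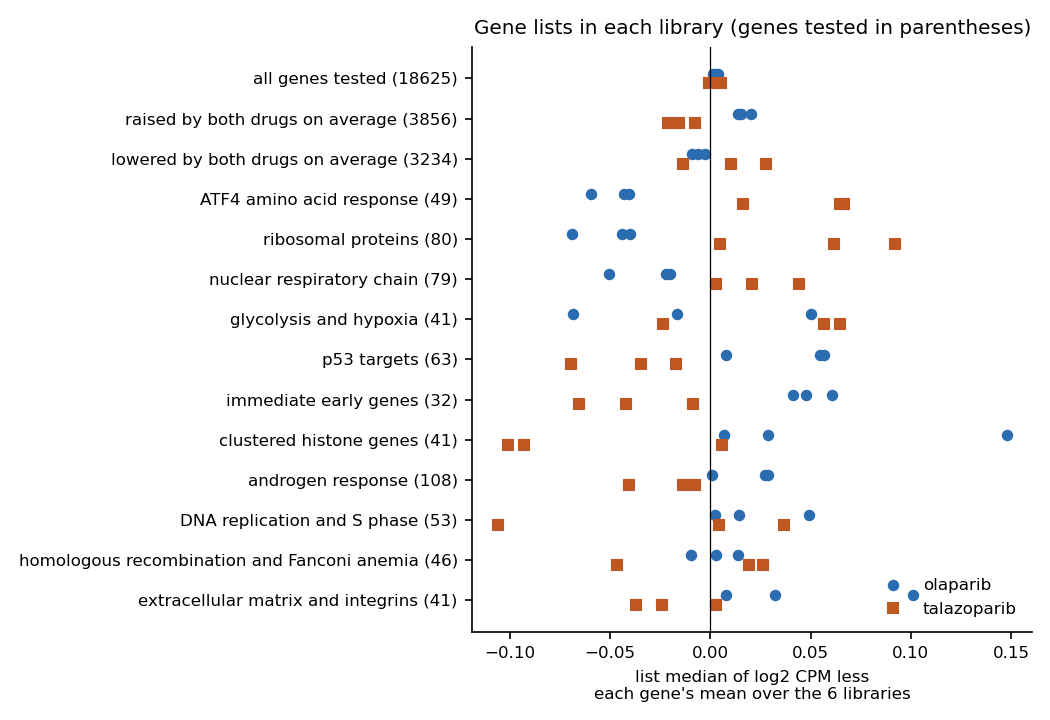
For each gene list (number of genes tested in parentheses), each point is the median over the list, in 1 of the 6 libraries, of log2 CPM less each gene's mean over the 6 libraries (x axis, log2). The olaparib and talazoparib libraries stand apart for ATF4 (-0.060 to -0.041 against 0.016 to 0.067), ribosomal proteins (-0.069 to -0.040 against 0.0047 to 0.092) and p53 targets (0.0077 to 0.057 against -0.069 to -0.017), and mix for S phase and homologous recombination.

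Targets of p53, of which 50 of 63 tested were raised by the drugs on average relative to DMSO (against 20.7% of all genes), included more genes lower than higher with talazoparib. Between the drugs 13 were lower and 1 higher, CCNG1 (22.2% called, against 8.36% of all genes), and the median was -0.078. NOTCH1, a receptor that p53 induces in epithelia, was at 29.9, 28.7 and 30.9 CPM with DMSO, 54.3, 52.6 and 54.7 CPM with olaparib and 42.4, 43.6 and 38.3 CPM with talazoparib. Its 3 groups did not overlap, and the difference between the drugs was -0.38 ± 0.047 SE, adjusted p = 4.48e-06, a call that held under every alternative run. PHLDA3, an AKT antagonist, was at 18.1, 17.2 and 19.2 CPM with olaparib and 16.0, 14.6 and 14.4 CPM with talazoparib (log2 fold change -0.28 ± 0.070 SE, adjusted p = 0.0105). FBXW7, the F-box protein that marks cyclin E and MYC for degradation, was at 19.1, 19.6 and 20.2 CPM and 16.5, 15.8 and 16.5 CPM (log2 fold change -0.27 ± 0.055 SE, adjusted p = 0.00185). The death receptor TNFRSF10B was at 229, 229 and 231 CPM with olaparib and 211, 209.7 and 205 CPM with talazoparib (log2 fold change -0.14 ± 0.026 SE, adjusted p = 0.000659). MDM2, the ligase that degrades p53, was at 239, 245 and 249.6 CPM with olaparib and 231, 239.8 and 237 CPM with talazoparib, with overlapping groups and a difference of -0.051 (95% interval -0.11 to 0.0074, adjusted p = 0.316). The PHLDA3 call was lost without olaparib C, talazoparib B or talazoparib C. The count of 13 lower genes was 6 without olaparib C or talazoparib B and 7 without talazoparib C.

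Immediate early genes, which growth factor signals induce within minutes, included some of the larger falls. Of 32 tested 5 were lower and 1 higher (18.8% called, against 8.36% of all genes, median -0.092). DUSP1, a phosphatase that switches off MAP kinases, was at 11.1, 10.4 and 9.37 CPM with DMSO, 11.8, 12.99 and 13.9 CPM with olaparib and 8.10, 8.61 and 8.76 CPM with talazoparib. Its DMSO libraries lay between the drugs, and the difference of -0.60 ± 0.077 SE, adjusted p = 6.99e-06 held under every alternative run. FOSL2, a FOS-family partner of JUN, was at 25.9, 26.0 and 26.1 CPM with olaparib and 20.9, 22.1 and 19.9 CPM with talazoparib, against 11.5, 12.9 and 11.8 CPM with DMSO (log2 fold change -0.31 ± 0.054 SE, adjusted p = 0.000328). KLF6 was at 9.61, 11.8 and 11.7 CPM with olaparib and 8.53, 8.61 and 8.65 CPM with talazoparib (log2 fold change -0.36 ± 0.087 SE, adjusted p = 0.00787). None of these groups overlapped. The KLF6 call was lost without olaparib B or olaparib C. The 5 lower genes became 2 without olaparib C, 3 without olaparib B or talazoparib C, and 7 without talazoparib A.

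ID1 and ID3, helix-loop-helix proteins that block differentiation factors and that BMP signals induce, were both lower with talazoparib. ID1 (chr20:31605283-31606515, plus strand, GRCh38) was at 17.1, 19.2 and 23.1 CPM with DMSO, 19.2, 21.6 and 22.4 CPM with olaparib and 15.7, 11.1 and 11.9 CPM with talazoparib, a difference of -0.72 ± 0.15 SE, adjusted p = 0.00864. ID3 was at 13.6, 14.4 and 16.8 CPM with DMSO, 18.3, 17.3 and 16.8 CPM with olaparib and 13.8, 11.98 and 11.05 CPM with talazoparib, a difference of -0.52 ± 0.10 SE, adjusted p = 0.00319. The drug groups did not overlap for either gene, and the ID1 call was lost without talazoparib C. NFKBIZ, a nuclear cofactor of NF-kB, was at 4.34, 3.95 and 4.75 CPM with olaparib and 3.10, 2.78 and 3.05 CPM with talazoparib (log2 fold change -0.55 ± 0.13 SE, adjusted p = 0.00609), and it was the 1 gene lower among 21 tested NF-kB targets (4.76% called, against 8.36% of all genes, median -0.061).

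The matrix glycoprotein THBS1 was at 11.6, 12.4 and 13.7 CPM with DMSO, 35.04, 34.0 and 31.7 CPM with olaparib and 29.0, 22.5 and 21.6 CPM with talazoparib, so both drugs were above DMSO and talazoparib was below olaparib (log2 fold change -0.47 ± 0.082 SE, adjusted p = 0.0006). Its list, the extracellular matrix and integrins, had 7 genes lower and 3 higher of 41 tested (24.4% called, against 8.36% of all genes, median -0.054), among them LAMA5 and HSPG2 lower and COL16A1 higher (log2 fold change 0.45 ± 0.12 SE, adjusted p = 0.0158). The calls of LAMA5 and HSPG2 were lost with GC and length offsets, where their log2 differences were -0.092 and -0.072, and without olaparib A, olaparib C, talazoparib B or talazoparib C, and that of COL16A1 without olaparib A or talazoparib B. The THBS1 call was lost in the fit of only the 6 libraries compared, at a log2 fold change of -0.47.

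The androgen response differed in part of its genes. Of 108 tested 21 were lower and 2 higher with talazoparib (21.3% called, against 8.36% of all genes), with a median of -0.041. The kinase PTK2B was at 78.4, 80.6 and 83.3 CPM with olaparib and 72.6, 67.2 and 64.7 CPM with talazoparib (log2 fold change -0.25 ± 0.035 SE, adjusted p = 3.4e-05), and the metalloprotease ADAMTS1 was at 548, 561 and 526 CPM and 461, 472 and 466 CPM (log2 fold change -0.22 ± 0.043 SE, adjusted p = 0.00293). Both were lower without overlap. KLK3, which encodes prostate-specific antigen, was at 1652, 1649 and 1612 CPM with olaparib and 1707, 1716 and 1616 CPM with talazoparib, overlapping, with a difference of 0.037 (95% interval -0.056 to 0.13, adjusted p = 0.706). TMPRSS2, another androgen-driven protease, was at 433, 417 and 391 CPM with olaparib and 399, 458 and 419 CPM with talazoparib, a difference of 0.040 (95% interval -0.11 to 0.19, adjusted p = 0.819). The intervals of KLK3 and TMPRSS2 lie within 1.2-fold. FOLH1, which encodes prostate-specific membrane antigen, was at 664, 669 and 653 CPM with olaparib and 709.5, 735 and 735 CPM with talazoparib, against 797, 798 and 766 CPM with DMSO (log2 fold change 0.13 ± 0.023 SE, adjusted p = 0.000324). Of the 16 prostate lineage markers FOLH1 was higher, and STEAP2 and FOXA1 were among those lower. Without any 1 of 4 libraries the STEAP2 call was lost, and without any 1 of 5 that of FOXA1. The 21 lower androgen genes became 12 without talazoparib B or talazoparib C and 13 without olaparib A.

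The fatty acid synthesis enzymes FASN and ACACA were lower with talazoparib. Of 35 genes of cholesterol and fatty acid synthesis 7 were lower and 1 higher with talazoparib (22.9% called, against 8.36% of all genes, median -0.020). FASN, fatty acid synthase, was at 1469, 1415 and 1506 CPM with olaparib and 1306, 1261 and 1209 CPM with talazoparib (log2 fold change -0.22 ± 0.049 SE, adjusted p = 0.0119). ACACA, acetyl-CoA carboxylase, was at 646, 657 and 656 CPM and 591, 575 and 566 CPM (log2 fold change -0.18 ± 0.034 SE, adjusted p = 0.00156). The groups of both genes stood apart, and the FASN call was lost without olaparib C or talazoparib C. ELOVL6, a fatty acid elongase, was the higher gene (log2 fold change 0.35 ± 0.11 SE, adjusted p = 0.0333), a call lost without any 1 of 5 of the 6 libraries. Of 49 genes of fatty acid oxidation 4 were higher, among them ACADM and HADHA, and 1 lower, ACOT7, an acyl-CoA thioesterase (10.2% called, median 0.019). The ACOT7 call was lost with each of the 6 libraries left out in turn, that of HADHA with RLE scaling, with the replicate block and without olaparib B, olaparib C, talazoparib B or talazoparib C, and that of ACADM without olaparib C or talazoparib C.

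Xenobiotic genes included the largest fall by size among the list members called, in a gene of few counts. CYP1A2, a target of the aryl hydrocarbon receptor, had 22, 23 and 27 counts with olaparib and 9, 13 and 16 with talazoparib, and its DMSO libraries were at 0.0340, 0.0873 and 0.101 CPM. The difference was -1.10 ± 0.35 SE, adjusted p = 0.0451, and its call was lost with each of the 6 libraries left out in turn. AHR, the receptor itself, was at 2.42, 2.99 and 2.69 CPM with olaparib and 3.67, 3.80 and 3.69 CPM with talazoparib, against 4.65, 4.45 and 4.10 CPM with DMSO (log2 fold change 0.46 ± 0.13 SE, adjusted p = 0.0172), and this call was lost without olaparib A, olaparib C, talazoparib B or talazoparib C. Of 29 genes on this list 2 were higher and 3 lower (17.2% called, against 8.36% of all genes, median -0.059). The efflux pump gene ABCB1 had too few counts to be tested, and ABCC1 was lower by 0.12, a call lost without talazoparib C.

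The unfolded protein response and chaperones were split. Of 33 endoplasmic reticulum genes 4 were higher and 3 lower (21.2% called, against 8.36% of all genes, median -0.0017), with XBP1, a transcription factor of this response, at 143, 141 and 142 CPM with olaparib and 153, 164 and 171 CPM with talazoparib (log2 fold change 0.19 ± 0.037 SE, adjusted p = 0.00102) and DNAJC3, an inhibitor of PERK, at 138, 139.6 and 141 CPM and 126, 121 and 125 CPM (log2 fold change -0.18 ± 0.035 SE, adjusted p = 0.00155). Of 23 heat shock genes 3 were lower, DNAJB1, BAG3 and HSPA1B, and 1 higher, HSPD1 (17.4% called). The BAG3 call was lost without olaparib C, talazoparib A or talazoparib B, that of HSPA1B without any 1 of 5 of the 6 libraries, that of DNAJB1 without olaparib C and that of HSPD1 without talazoparib C. Of 30 NRF2 and glutathione genes 4 were lower and 2 higher (20% called), and of 31 Wnt genes 3 were lower and 1 higher (12.9%). Nearer to or below the 8.36% of all genes, 2 of 53 interferon genes were lower and 1 higher (5.66%), and 3 of 27 growth factor genes, IGF1R, IGF2R and EGFR, were lower (11.1%). With GC and length offsets none of the 27 was called, and IGF1R was also lost with total-count scaling and with the replicate block. The calls of IGF1R, IGF2R and EGFR were lost without talazoparib B or talazoparib C. Those of IGF1R and EGFR were each lost without any 1 of 5 of the 6 libraries. Of 37 genes of polyamine and nucleotide metabolism 3 were lower and 1 higher (10.8%), and of 41 clustered histone genes 3 were lower (7.32%). In 18 genes of MHC class I, 37 of the proteasome and 13 neuroendocrine genes 1 was higher and 1 lower, in 19 circadian and 30 BCL2-family genes 1 was lower, and none of 4 metallothioneins passed. Of 9 testable markers of other cell types 1, ENO2, was higher.

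H1-4, the linker histone gene with the largest fall among genes with a symbol and 100 counts, was at 8.12, 6.37 and 5.04 CPM with DMSO, 5.53, 7.09 and 7.73 CPM with olaparib and 3.47, 4.17 and 3.69 CPM with talazoparib (log2 fold change -0.84 ± 0.20 SE, adjusted p = 0.00925). Replication-dependent histone mRNAs mostly lack a poly(A) tail, and the libraries were made by mRNA capture. ARHGAP11B, a partial copy of ARHGAP11A with which it shares reads, was at 4.03, 4.21 and 4.01 CPM with olaparib and 2.67, 2.73 and 2.31 CPM with talazoparib (log2 fold change -0.67 ± 0.14 SE, adjusted p = 0.00285). The groups of these genes stood apart, and the H1-4 call was lost without olaparib C or talazoparib C. FAM193A was at 25.9, 26.0 and 26.3 CPM with DMSO, 28.7, 29.4 and 28.1 CPM with olaparib and 22.6, 21.6 and 19.0 CPM with talazoparib (log2 fold change -0.45 ± 0.052 SE, adjusted p = 1.95e-06). ARRDC3, an arrestin-like adaptor for receptor ubiquitylation, was at 128, 119 and 104 CPM with DMSO, 109.8, 126 and 114 CPM with olaparib and 83.6, 86.7 and 91.2 CPM with talazoparib (log2 fold change -0.42 ± 0.062 SE, adjusted p = 0.000602). For FAM193A and ARRDC3 talazoparib stood below both other groups, and both calls held under every alternative run. DTX2, a deltex-family ubiquitin ligase, was at 14.6, 13.97 and 14.2 CPM with DMSO, 20.1, 19.3 and 20.5 CPM with olaparib and 15.8, 14.8 and 14.8 CPM with talazoparib (log2 fold change -0.41 ± 0.064 SE, adjusted p = 0.000124). FAXDC2 and DEFB132 were also among the 12 largest falls, by 0.46 and 0.44. The FAXDC2 call was lost without olaparib C, talazoparib A or talazoparib C, and that of DEFB132 with the replicate block and without any 1 of 5 of the 6 libraries.

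TNNT1, slow skeletal troponin T, had the largest rise by the same rule, with 95, 63 and 46 counts with olaparib and 99, 127 and 158 with talazoparib. In CPM these are 2.501, 1.78 and 1.32 and 2.84, 3.15 and 3.35, and the difference was 0.74 ± 0.17 SE, adjusted p = 0.00651. AS3MT, an arsenic methyltransferase, was at 2.13, 1.75 and 1.98 CPM with olaparib and 2.498, 3.65 and 3.16 CPM with talazoparib (log2 fold change 0.67 ± 0.15 SE, adjusted p = 0.00331). Neither gene had overlapping groups, and the TNNT1 call was lost without olaparib C. NIBAN1, a stress-induced regulator of translation, was at 67.9, 63.3 and 49.7 CPM with DMSO, 20.4, 20.1 and 18.1 CPM with olaparib and 25.6, 32.0 and 28.2 CPM with talazoparib (log2 fold change 0.55 ± 0.13 SE, adjusted p = 0.0199), so both drugs were below DMSO and talazoparib less so. ACKR3, a scavenger receptor for CXCL12, was at 6.72, 6.58 and 5.07 CPM with DMSO, 4.05, 3.501 and 3.44 CPM with olaparib and 4.34, 5.11 and 6.70 CPM with talazoparib (log2 fold change 0.57 ± 0.16 SE, adjusted p = 0.0278). The ACKR3 and NIBAN1 groups of the drugs stood apart, and both calls were lost without olaparib B, olaparib C, talazoparib B or talazoparib C. MAB21L4, ZNF257, ZNF567, BLNK, PRTG and CCDC110 completed the 12 largest rises, by 0.48 to 0.59, and of these BLNK and CCDC110 had overlapping groups. The ZNF567 call held without each library, those of BLNK, PRTG and CCDC110 were each lost without any 1 of 4 libraries, that of ZNF257 without any 1 of 3, and that of MAB21L4 without olaparib C or talazoparib B. Genes with a ZNF symbol, a set picked after values were seen, had 37 higher and 10 lower of 485 (9.69% called, against 8.36% of all genes, median 0.066).

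The difference between the drugs moved with the base composition of the transcripts. The median GC content was 41.6% for the genes higher with talazoparib, 53.8% for those lower and 48.3% for all with a value, and the median transcript length was 3544, 5573 and 3270 bases respectively. With the genes split by GC content into 5 equal parts, from the lowest to the highest, 249, 176, 83, 52 and 18 genes were higher and 60, 120, 199, 279 and 315 lower. The gap between the highest and the lowest part, relative to DMSO, was 0.19, 0.18 and 0.24 in the olaparib libraries and 0.14, 0.11 and 0.028 in the talazoparib libraries (log2). The groups did not overlap, with an exact two-sided permutation p of 0.1, the smallest that 3 against 3 libraries allow, and talazoparib C, the deepest library, was the lowest. In the time course at day 5 the same gap was 0.094 to 0.15 with olaparib at 1 µM and 0.25 to 0.31 at 5 µM.

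Offsets that removed each library's trend over GC content and length, chosen after seeing the data, left 830 genes, 350 (1.88%) higher and 480 (2.58%) lower. Of these, 296 and 407 were also called without offsets, and none was called in the opposite direction. With offsets the ATF4 list had 22 genes higher and 1 lower (median 0.10), the ribosomal proteins 35 higher and 0 lower (median 0.074), the p53 targets 10 lower and 0 higher (median -0.067) and the androgen response 19 lower and 0 higher (median -0.048). The respiratory chain had 3 higher genes (median 0.014), and of the 8 called without offsets only UQCRB and ATP5PO were still called, and the matrix list had 3 higher and 4 lower with a median of -0.00082. Of 123 named genes called 51 lost their call with offsets, among them E2F2, PLK1, SLX4, OGG1, APEX1, OARD1, FOXA1, LAMA5, HSPG2, IGF1R, IGF2R, EGFR, GNL3, TCOF1, ABCC1, CYP1A2, HADHA, ACOT7, DNAJB1, HSPA1B, HSPD1, BLNK, CCDC110, ACKR3 and ZNF257. The part of GC content and of depth in the differences was not tested beyond these offsets.

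**Figure D4:**
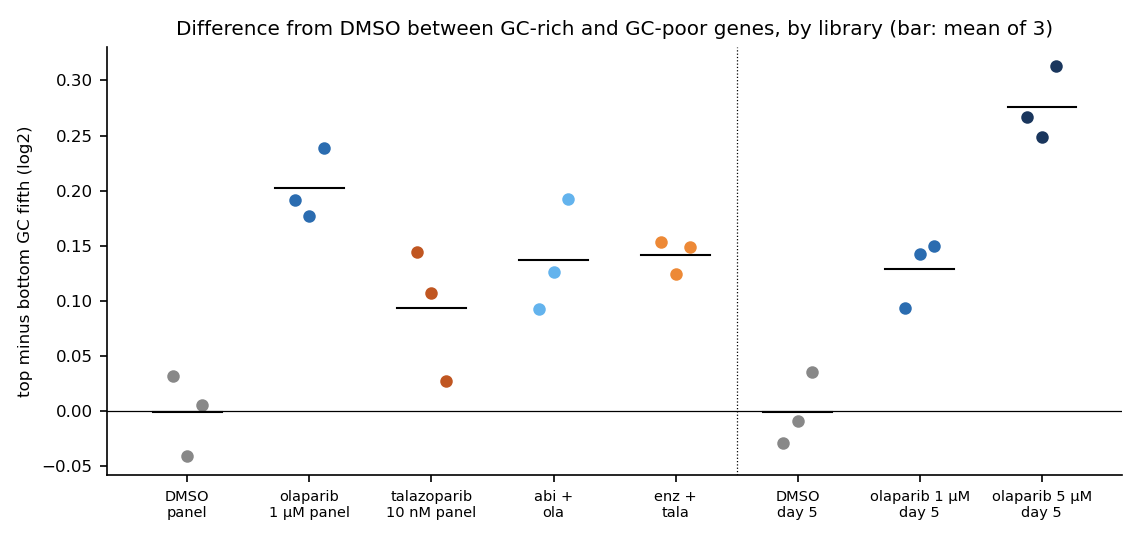
For each library (points; bar at the mean of 3), the y axis is the median log2 difference from DMSO over the genes in the highest of 5 parts by GC content less that of the lowest part, in the panel groups and, right of the dotted line, in the day 5 time course. The olaparib libraries lie at 0.18 to 0.24, the talazoparib libraries at 0.028 to 0.14, and olaparib at 5 µM at 0.25 to 0.31.

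Libraries that the direct comparison did not use gave the same contrast of drugs on top of an androgen receptor pathway inhibitor (ARPi): talazoparib added to enzalutamide, less enzalutamide alone, against olaparib added to abiraterone, less abiraterone alone. There the ARPi differs between the arms and cannot be told apart from the PARP inhibitor. Of the 18625 genes 109 (0.585%) passed, 41 (0.22%) higher and 68 (0.365%) lower with talazoparib, at a median SE of 0.076 against 0.053 in the direct comparison. Of the 580 genes higher in the direct comparison 5 were higher and 18 lower on an ARPi, and 41.0% had a difference above zero there. Of the 977 lower genes 10 were higher and 7 lower, and 62.5% were above zero, against 49.3% of all genes tested. With GC and length offsets these shares were 51.4% of the 350 genes then called higher, 52.5% of the 480 then called lower and 50.7% of all genes. The calls on an ARPi with offsets were 11 higher and 20 lower among those 350 genes and 13 higher and 7 lower among those 480, beside 83 higher and 86 lower of all 18625. ARRDC3 was lower in both settings, at -0.42 without and -0.52 with an ARPi (adjusted p = 0.00809 for the latter, edgeR).

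The ATF4 list went the other way on an ARPi. Of its 49 genes none was higher and 24 were lower with talazoparib, with a median of -0.22. JDP2 had -0.43 (adjusted p = 0.0124, edgeR) there against 0.28 without an ARPi, and ASNS had -0.36 (adjusted p = 0.108) against 0.41. H2BC21, a histone H2B gene, was lower without an ARPi (-0.18) and higher with one (0.29, adjusted p = 0.000386, edgeR). A test of the difference between these drug differences, added after seeing the data, passed for 596 genes (3.2%), 395 of them called in the direct comparison. That test includes the direct comparison itself. Genes called there, also those of the ATF4 list, were more apt to pass it, so the overlap is no separate support. Of the ATF4 list 30 passed, all 30 more positive without an ARPi. The ribosomal proteins had a median of 0.0059 on an ARPi with none called, and 7 of 80 passed the test of the difference.

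A dose step of olaparib alone, 5 µM minus 1 µM at day 5 of the time course, was set beside the direct comparison. Of 18502 genes tested there 4914 (26.6%) were higher and 4995 (27%) lower at the larger dose, a split that total-count scaling moved to 3881 and 6146. Of the 577 genes higher with talazoparib that were tested there, 125 were higher and 290 lower at 5 µM. Of the 976 lower genes, 547 were higher and 232 lower. The p53 targets had a median of 0.53 in this step, with 52 of 62 higher, and the ATF4 list a median of -0.28, with 10 of 49 higher and 33 lower. The log2 difference of 5 µM less 1 µM was 1.69 for CDKN1A, 0.80 for NOTCH1 and -0.67 for ASNS, each opposite in sign to talazoparib minus olaparib. That of DDIT4 was 0.43, of the same sign as its 0.62 between the drugs. S-phase and mitotic genes, which fell in all 53 and 66 cases in the dose step (medians -1.37 and -2.20), had medians of -0.046 and -0.0033 between the drugs.

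**Figure D5:**
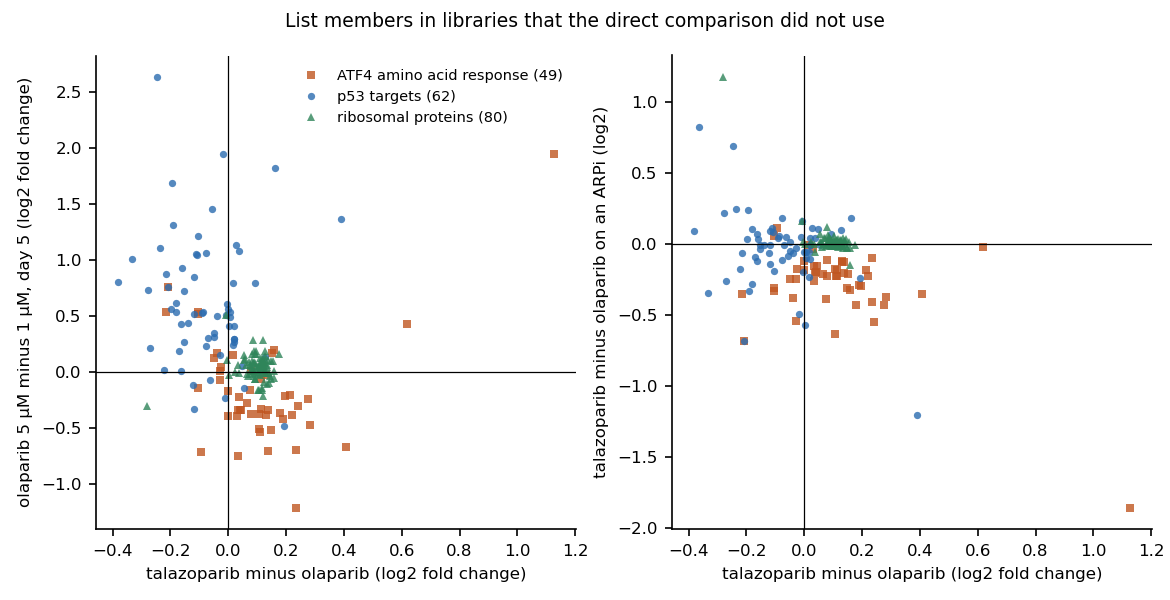
Each point is a gene of the ATF4 list (squares), the p53 targets (circles) or the ribosomal proteins (triangles), with talazoparib minus olaparib on the x axis and, on the y axis, olaparib 5 µM minus 1 µM at day 5 (left) or talazoparib minus olaparib on an ARPi (right), all log2 fold changes; the legend counts genes tested in the time course. Most p53 targets lie left of zero and above it in the left plot, and most ATF4 genes lie right of zero and below it in both plots.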

How the data were processed

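RNA of C4-2B cells was sequenced from stranded, mRNA-captured libraries. Per the labels and the study's methods, the authors trimmed reads with Trim Galore, aligned them to GRCh38 with STAR and quantified genes with Salmon on a GENCODE annotation, and they deposited estimated counts per gene, without normalization and as whole numbers. How they were made whole is not given in the sources used here. Salmon shares reads between similar genes, so genes with close copies are uncertain.

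Counts as deposited were tested with edgeR 4.0.16 (quasi-likelihood, TMM scaling, filterByExpr, robust) in R 4.3.3, with all 21 panel libraries in 1 fit and the 18 time course libraries in another, and Benjamini-Hochberg adjustment over all genes tested. SE and 95% intervals come from these fits, and CPM are TMM-scaled except in the summed marker levels. Symbols and coordinates came from GENCODE release 44, and 2754 of the 18625 genes tested had no symbol. Promoters came from RefSeq. The test steps were tested on simulated data. Members and gene lists were chosen with earlier results of these data known. Named genes were the 12 largest rises and falls past the threshold with a symbol and a mean of 100 counts, the 6 largest mean effects of the drugs in each direction, up to 4 called members per list (or 2 by level), and fixed genes such as PARP1, CDKN1A and KLK3. Some genes that this rule names are not reported here. Alternatives were DESeq2 1.42.0, other scalings, filters and libraries, a replicate block, and GC and length offsets with lowess span 0.3. These offsets, and the test of whether the drug difference differed without and with an ARPi, were added after seeing the data. Depth was 26932205 to 49833473 counts per library over the series. p-values and intervals cover the spread between libraries only.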

Additional observations from a re-analysis of the deposited data

Results flagged for a closer look

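The difference between talazoparib and olaparib was not the same without and with an ARPi for 596 genes, by edgeR's test of the difference between the drug differences, which was added after seeing the data. The ARPi was enzalutamide in the talazoparib arm and abiraterone in the olaparib arm, so the ARPi and the PARP inhibitor cannot be told apart. Of the 142 genes named by rule, 39 were among these 596, beside 3.2% of all genes tested. Of the 142, 123 had passed the direct comparison, which is itself part of this test. Their share was therefore partly fixed by the choice of genes, and nothing is concluded from it. Values are given for 38 of them, and each is the log2 fold change of talazoparib minus olaparib without an ARPi less that with one.

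ASNS, PCK2, SLC7A11 and JDP2 of the ATF4 list were on the positive side, where talazoparib minus olaparib was higher without an ARPi. The positive values were IFITM1 (1.48), LINC01133 (1.13), TNNT1 (1.04), AHR (0.90), ACKR3 (0.81), ASNS (0.76), JDP2 (0.71), ENO2 (0.70), PCK2 (0.65), SLC7A11 (0.61), XBP1 (0.44), FZD6 (0.24), GNL3 (0.18), FOLH1 (0.17) and RPL27A (0.17).

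The negative values included the cell cycle inhibitor CDKN1A, mitotic genes and lipid synthesis enzymes, and were CYP1A2 (-2.35), ARHGAP11B (-0.86), ID3 (-0.67), E2F2 (-0.64), BHLHE40 (-0.55), PHLDA3 (-0.50), SPATA18 (-0.48), NOTCH1 (-0.47), H2BC21 (-0.47), FASN (-0.44), CDKN1A (-0.43), CAD (-0.37), PLK1 (-0.36), POLR1A (-0.36), IGF2R (-0.35), FAM193A (-0.32), MDC1 (-0.31), ACACA (-0.31), CDCA8 (-0.30), DTX3L (-0.29), ADAMTS1 (-0.29), CDC25B (-0.28) and PTK2B (-0.28). Fitted differences of opposite sign without and with an ARPi were common among these genes, though not in every gene. Among those with positive values they were seen for ASNS, JDP2, PCK2, XBP1, AHR and IFITM1, among others. Among those with negative values they were seen for CDKN1A, NOTCH1, H2BC21, CYP1A2, E2F2, FASN, PHLDA3, SPATA18 and BHLHE40, among others.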

How the results depend on the processing

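Of 123 named genes called, none changed sign under any alternative run. The count of 1557 genes different between the drugs stayed within 1.5 times under RLE scaling (1537), total-count scaling (1535), no filter (1489), a CPM minimum of 1 in 3 libraries (1679), DESeq2 (2208, of which 1487 shared), only the 6 libraries compared (1501) and only the 9 with DMSO (1056). It was 623 at an adjusted p of 0.01, 55 when the log2 fold change also had to be 0.5 or more in size, and 830 with GC and length offsets. Leaving out 1 library gave 630 to 1848 genes, with 630 without talazoparib C, 784 without olaparib C, 804 without talazoparib B and 1021 without olaparib A.

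The median difference over genes raised by the drugs on average (-0.031) was -0.040 with total-count scaling, -0.024 with no filter, -0.010 with offsets, -0.046 for genes raised by both olaparib doses in the time course, and -0.040 to -0.023 with 1 library left out. The median over genes lowered on average (0.016), a value with no test, changed sign to -0.00030 with offsets and was 0.0063 to 0.025 with 1 library left out, with 0.0063 without talazoparib C, 0.0082 without talazoparib A, 0.024 without talazoparib B, 0.025 without DMSO C and 0.010 without DMSO A. On an ARPi the 109 genes became 279 with no filter, 263 with DESeq2, 169 with offsets and 67 to 120 with 1 library left out, with 67 without enzalutamide C, 69 without abiraterone plus olaparib B and 71 without enzalutamide plus talazoparib C. The 596 genes whose drug difference differed without and with an ARPi became 1123 with DESeq2, 368 with offsets and 351 to 934 with 1 library left out, with 351 without enzalutamide A or abiraterone plus olaparib B, 359 without olaparib C, 395 without enzalutamide plus talazoparib C and 934 without talazoparib A. The causes were not tested.

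With a replicate block for the letters A to C, 1465 genes differed between the drugs, 7021 in the mean effect, 102 on an ARPi, 533 in the test of the difference and 9875 in the dose step, and the medians were -0.031 and 0.016. Same-lettered olaparib and talazoparib libraries did not deviate together (correlations -0.12, -0.061 and -0.087 for A, B and C). The labels do not say whether same-lettered libraries were cultured or processed together, and correlations over so few libraries cannot show it.

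Of 123 named genes called, 72 stayed past the threshold with offsets, 88 with only the 9 libraries, 116 with the replicate block, and 52, 60 and 62 without talazoparib C, olaparib C or talazoparib B. DESeq2 gave an adjusted p for 106 of them, and all 106 stayed past it. Olaparib and talazoparib libraries held 35985799 to 49833473 counts.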
